A study of Mus musculus with 10 samples.

Results

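The TRiC chaperonin subunits are the 8 genes Tcp1, Cct2, Cct3, Cct4, Cct5, Cct6a, Cct7 and Cct8, and they were taken by gene symbol from a table of 55359 mouse genes. All 8 were found, and all 8 passed the filter of at least 1 FPKM in 5 or more libraries that left 13324 genes for testing. FPKM is the count of a gene per kilobase of its exonic length, scaled by the total counts of the library. TRiC, also called CCT, is the chaperonin of the eukaryotic cytosol. Its 8 related subunits occupy fixed places in each of a pair of stacked rings, and unfolded proteins are enclosed in the cavity and folded in cycles of ATP binding and hydrolysis. Actins and tubulins depend on it to reach their folded state, as do many WD-repeat proteins, and prefoldin and the phosducin-like proteins work with it as cochaperones. In the kidney tubule, actin carries the brush border and tubulin the microtubules, and both networks are known to be disrupted by ischaemia.

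The study compared kidney tissue of male mice by poly(A) RNA sequencing with 150-base paired reads. The IRI group (5 libraries) had 30 min of renal ischaemia followed by 24 h of reperfusion, a model of acute kidney injury, and the sham group (5 libraries) had sham surgery. Strain, age, diet and whether 1 or both kidneys were made ischaemic are not given in the sources used here, and no genetic change or drug is named for either group. The libraries held between 13147899 and 18603272 counts, and each subunit had between 1603 and 4492 counts in every library.

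The tissue labels fitted the markers. The 4 injured tubule markers summed to 1727 to 2790 FPKM in IRI libraries, against 1.70 to 4.05 FPKM in sham libraries. The 6 proximal tubule markers summed to 857 FPKM in IRI replicate 1 and 134 to 298 FPKM in the other 4 IRI libraries. In sham libraries they summed to 1576 to 2200 FPKM. All 6 were called lower by the edgeR test described below, as were 32.4% of all genes tested. Distal convoluted tubule markers summed to 92.4 to 155 FPKM in IRI libraries, against 175 to 278 FPKM in sham libraries. Podocyte markers (127 to 154 FPKM in IRI libraries, against 50.1 to 83.9 FPKM in sham libraries) and endothelial markers (59.7 to 88.9 FPKM, against 34.7 to 51.5 FPKM) ran the other way. Podxl was the largest part of the podocyte sum (mean 95.2 FPKM in IRI libraries). The podocyte marker Nphs1 and the endothelial marker Emcn were not called. Thick ascending limb markers went both ways (log2 fold change 0.79 for Umod, -1.79 for Slc12a1), as did macrophage markers (2.90 for Cd68, -2.11 for Csf1r). Neutrophil markers summed to 23.2 to 106.8 FPKM in IRI libraries, against 1.08 to 3.27 FPKM in sham libraries. These marker sums moved with the groups, and their part in the subunit results was not tested. In bulk RNA, fewer cells of a type and less RNA per cell cannot be told apart. IRI replicate 1 stood apart. Mitochondrial ribosomal RNA took 2.31% of its counts, against 0.214% to 0.450% in the other 4 IRI libraries and 0.230% to 0.267% in the sham libraries. The 10 genes of the list for HSP70, HSP90 and their cochaperones summed to 2705 FPKM there, against 960 to 1409 FPKM in the other 4 IRI libraries and 925 to 1057 FPKM in the sham libraries.

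TRiC transcripts were more abundant after injury. The 8 subunits together made up 0.161% to 0.184% of all counts in IRI libraries, against 0.120% to 0.124% in sham libraries. Their summed level was 473 ± 26.0 FPKM in IRI libraries and 327 ± 5.08 FPKM in sham libraries (SD, n = 5 each). For each of the 8 subunits, every IRI library lay above every sham library in FPKM, which was also the case for 36.7% of all genes tested. Counts were tested with edgeR's quasi-likelihood test after TMM scaling, with p-values adjusted by the Benjamini-Hochberg method over all 13324 genes, and a gene was called at an adjusted p under 0.05. By this test 6 subunits rose, none fell, and Cct4 and Cct6a were not called. Over all genes tested, 34.5% rose and 32.4% fell. The increases were small among the changes in these kidneys. The median log2 fold change of the 8 subunits was 0.32, against 0.05 for all genes tested, and 53.2% of genes had a larger absolute change than Cct2, the subunit that rose most.

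The size of the increase depended on how libraries were scaled. TMM factors averaged 1.09 in IRI libraries and 0.916 in sham libraries. Scaling by library totals, on which FPKM also rests, moved the median log2 fold change of all genes by 0.25. On that scale all 8 subunits rose, with a median log2 fold change of 0.57, but 47.4% of all genes rose as well and 23.6% fell. Cct4 and Cct6a were called on that scale, with log2 fold changes of 0.30 (adjusted p = 0.00529) and 0.34 (adjusted p = 0.00334) by edgeR. With TMM-scaled CPM (counts scaled to a common library size), 5 of the 8 subunits kept every IRI library above every sham library, against 26% of all genes tested.

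**Figure D1:**
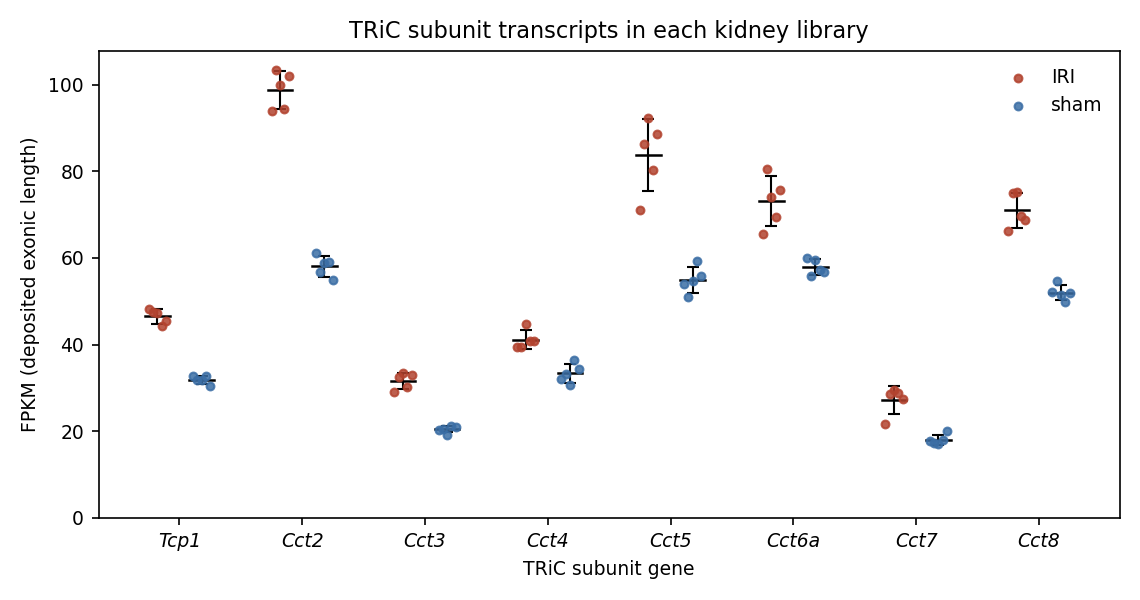
FPKM of each TRiC subunit gene (horizontal axis) in each library, with IRI libraries in red on the left of each pair and sham libraries in blue on the right; bars are the mean and 1 SD (n = 5 each). In every pair the IRI points lie above the sham points, with the widest step for Cct2 (98.8 FPKM in IRI libraries and 58.1 FPKM in sham libraries).

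In work on the yeast complex, subunits Cct1 (the product of Tcp1), Cct2, Cct4 and Cct5 bind ATP with high affinity and form one side of the ring. Cct2 changed most of the 8. The gene (ENSMUSG00000034024, chr10:116886906-116899719 on the minus strand, GRCm39) encodes the beta subunit, and human mutations in it cause a retinal degeneration. Cct2 was at 94.04, 103.51, 99.90, 94.39 and 101.97 FPKM in IRI libraries, against 61.19, 56.66, 58.91, 58.96 and 54.82 FPKM in sham libraries. The lowest IRI library exceeded the highest sham library by a wide margin. Cct2 rose 1.43-fold (log2 fold change 0.51 ± 0.08 (SE), adjusted p = 8.23e-05 by edgeR). Tcp1 (ENSMUSG00000068039, chr17:13134588-13143954, plus strand) encodes the alpha subunit and was named as a protein of the mouse t complex. Its transcript was at 48.16, 47.54, 47.27, 44.24 and 45.35 FPKM in IRI libraries, against 32.81, 31.76, 31.77, 32.68 and 30.40 FPKM in sham libraries. In FPKM the libraries of each group were close together and the groups were far apart. After TMM scaling the IRI libraries ran from 200 to 245 CPM, against 168 to 183 CPM in sham libraries. Tcp1 rose 1.23-fold (log2 fold change 0.30 ± 0.08, adjusted p = 0.00748 by edgeR), and it was the only subunit whose FPKM was not lowest in IRI replicate 1 among the IRI libraries. On the TMM scale only Cct5 and Cct7 were lowest in that library.

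Cct5 (ENSMUSG00000022234, chr15:31590946-31601950, minus strand) encodes the epsilon subunit, and a mutation of the human gene causes a sensory neuropathy. Its level was 71.02, 86.29, 92.23, 80.23 and 88.57 FPKM in IRI libraries, against 53.99, 51.07, 54.68, 59.36 and 55.80 FPKM in sham libraries. IRI replicate 1 was the nearest to the sham range. Cct5 rose 1.28-fold (log2 fold change 0.35 ± 0.08, adjusted p = 0.00246 by edgeR). Cct4 (ENSMUSG00000007739, chr11:22940519-22953780, plus strand), the delta subunit, was the subunit with the smallest difference. It was at 39.34, 39.50, 44.80, 40.93 and 40.84 FPKM in IRI libraries, against 32.12, 33.14, 30.66, 36.34 and 34.46 FPKM in sham libraries. The groups did not overlap in FPKM, but after TMM scaling only 1 of 5 IRI libraries lay above the highest sham library. The log2 fold change of Cct4 was 0.05, with a 95% interval of -0.13 to 0.23 (adjusted p = 0.616 by edgeR).

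The other four subunits bind ATP weakly in the yeast complex. Cct3 (ENSMUSG00000001416, chr3:88204423-88229074, plus strand), the gamma subunit, was at 29.05, 32.48, 33.35, 30.23 and 32.98 FPKM in IRI libraries, against 20.34, 20.62, 19.23, 21.21 and 20.96 FPKM in sham libraries. The sham libraries spanned a narrow range well below every IRI library. Cct3 rose 1.30-fold (log2 fold change 0.37 ± 0.08, adjusted p = 0.000879 by edgeR). Cct7 (ENSMUSG00000030007, chr6:85428496-85445457, plus strand), the eta subunit, was at 21.74, 28.63, 29.61, 28.74 and 27.44 FPKM in IRI libraries, against 17.74, 17.38, 16.99, 17.92 and 19.96 FPKM in sham libraries. IRI replicate 1 lay far below the other 4 IRI libraries and only just above the highest sham library. Cct7 rose 1.27-fold (log2 fold change 0.34 ± 0.09, adjusted p = 0.00387 by edgeR), and without IRI replicate 1 its log2 fold change was 0.39.

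Cct8 (ENSMUSG00000025613, chr16:87280214-87292761, minus strand), the theta subunit, was at 66.28, 74.97, 75.27, 69.63 and 68.74 FPKM in IRI libraries, against 52.24, 54.71, 51.50, 49.73 and 51.82 FPKM in sham libraries. After TMM scaling 4 of 5 IRI libraries lay above the highest sham library. Cct8 rose 1.15-fold (log2 fold change 0.20 ± 0.08, adjusted p = 0.0408 by edgeR), close to the threshold. The call was lost when IRI replicate 1, 2 or 3 or sham replicate 1, 3 or 4 was left out, with adjusted p from 0.0502 (without sham replicate 1) to 0.0771 (without IRI replicate 2) and log2 fold changes of 0.18 to 0.22. Cct6a (ENSMUSG00000029447, chr5:129864062-129875212, plus strand) encodes the widely expressed zeta subunit. It was at 65.53, 80.62, 74.18, 69.53 and 75.62 FPKM in IRI libraries, against 60.01, 55.84, 59.50, 57.12 and 56.76 FPKM in sham libraries. The lowest IRI library stood only slightly above the highest sham library. Cct6a had a log2 fold change of 0.08, with a 95% interval of -0.08 to 0.25 (adjusted p = 0.349 by edgeR), and 4 of 5 IRI libraries lay above the highest sham library after TMM scaling. On the TMM scale each side of the ring thus had 3 of 4 subunits that rose, beside 34.5% of all genes, and 1 not called. With library totals all 8 rose, beside 47.4% of all genes, so this count depends on the scaling.

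**Figure D2:**
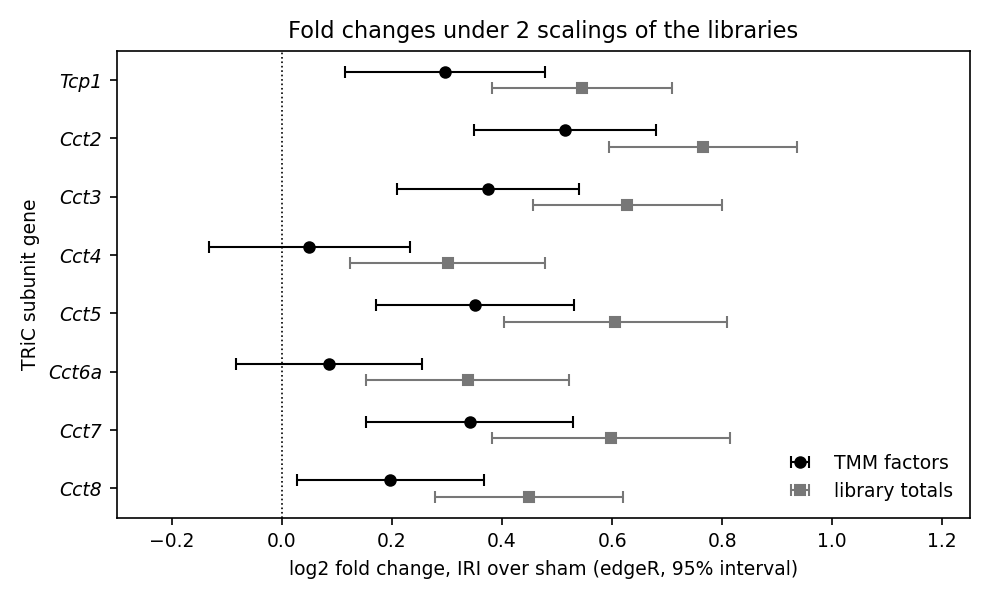
Log2 fold change of each subunit, IRI over sham, from edgeR with TMM factors (black circles) and with library totals (grey squares); bars are 95% intervals. The TMM intervals of Cct4 and Cct6a cross 0, and all 8 intervals with library totals lie above 0.

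To ask whether the 8 subunits changed in proportion, all genes were fitted again with each library scaled to the geometric mean of the 8 subunits, a comparison that does not depend on the scaling of the library. Over all genes tested, 20.7% rose and 43.9% fell relative to the subunits. Cct2 rose relative to the mean of the 8 (log2 fold change 0.24 ± 0.08, adjusted p = 0.0153 by edgeR), and it kept this call whichever library was left out. Cct4 fell by 0.22 ± 0.08 on the log2 scale (adjusted p = 0.0229) and Cct6a fell by 0.19 ± 0.08 (adjusted p = 0.0459). The call of Cct4 was lost without IRI replicate 2 (adjusted p = 0.0503) and without sham replicate 4 (adjusted p = 0.0611). That of Cct6a was lost without any 1 of the libraries other than IRI replicate 2, with adjusted p from 0.0512 to 0.0969 and log2 fold changes of -0.20 to -0.17. The other 5 subunits were not called, with log2 fold changes between -0.08 for Cct8 and 0.10 for Cct3. Against the mean of the other 7 subunits in place of all 8, the values were 0.27 for Cct2, -0.26 for Cct4 and -0.22 for Cct6a. The calls were the same, but leaving a subunit out of the mean widens its value by a nearly fixed factor. It is therefore no separate check. The relative values of the 8 are also tied, since a rise of 1 subunit above the mean lowers the others.

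In FPKM the order of the levels in IRI libraries was Cct2, Cct5, Cct6a, Cct8, Tcp1, Cct4, Cct3 and Cct7, running from 98.8 ± 4.35 FPKM for Cct2 to 27.2 ± 3.17 FPKM for Cct7 (SD, n = 5). In sham libraries the order was Cct2, Cct6a, Cct5, Cct8, Cct4, Tcp1, Cct3 and Cct7, running from 58.1 ± 2.44 FPKM for Cct2 to 18.0 ± 1.15 FPKM for Cct7 (SD, n = 5). Neighbours in the order were separated without overlap only at Cct2 and Cct5, Cct8 and Tcp1, and Cct4 and Cct3 in IRI libraries, and at Cct8 and Cct4, and Tcp1 and Cct3 in sham libraries. Replicates agreed closely, with a coefficient of variation between 3.54% for Tcp1 and 11.6% for Cct7 in IRI libraries and between 3.03% for Tcp1 and 6.53% for Cct4 in sham libraries.

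The levels of the 8 subunits depended on the length used. The deposited exonic length joins all exons of all transcripts of a gene, and it ran from 2557 bases for Cct2 to 6778 bases for Cct7. The length of 1 reference transcript per gene, an alternative chosen after the values were seen, ran only from 1853 bases for Cct5 to 2484 bases for Cct4. The deposited length was 3.22 times that of the reference transcript for Cct3, 2.78 times for Cct7 and 1.29 times for Cct8. The highest mean level was 3.63 times the lowest in IRI libraries and 3.23 times the lowest in sham libraries with the deposited length. With the reference transcript these ratios were 1.86 in IRI libraries and 1.65 in sham libraries. Cct3 then stood at 101.9 ± 6.04 FPKM in IRI libraries and 66.0 ± 2.48 in sham libraries (SD, n = 5 each), beside 91.6 ± 5.13 in IRI libraries and 67.1 ± 2.31 in sham libraries for Cct8. Fold changes do not use the length, so none of them moved. For Cct6a the reference was the longest annotated transcript, which is classed as non-coding, because no transcript of it met the rule for the others.

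**Figure D3:**
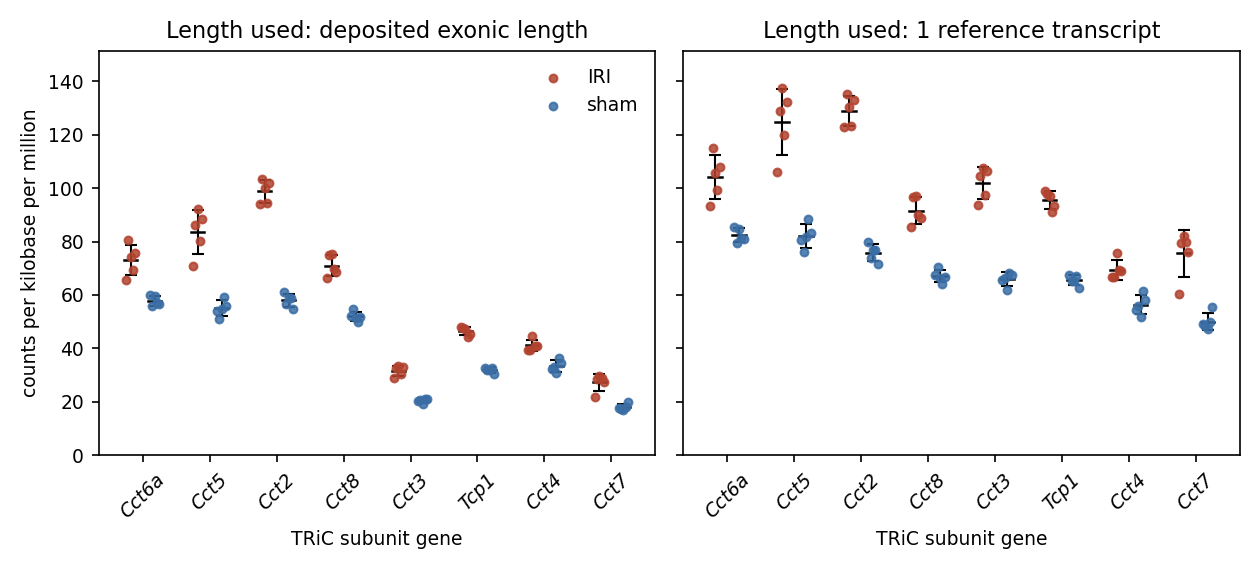
Level of each subunit in each library as FPKM (axis: counts per kilobase, scaled to library size), with the deposited exonic length (left panel) and with the length of 1 reference transcript (right panel); IRI libraries are red and sham libraries blue, and bars are the mean and 1 SD (n = 5 each). The highest IRI mean is 3.63 times the lowest in the left panel and 1.86 times in the right panel.

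Promoter sequences were available for 7 of the 8 genes, from RefSeq on GRCm38.p6, as windows of 250 bases before to 50 bases after each annotated start. Of the letters searched on both strands, the GC box, GGGCGG or in reverse CCGCCC, the known core of Sp1 sites, was in a window of all 7, against 38.2% of the 27025 genes in the table. The TATA box, TATAAA or in reverse TTTATA, was in a window of none of the 7, against 15.7% of genes. The letters CCAAT or in reverse ATTGG, the known core of NF-Y sites, were in Tcp1, Cct3, Cct6a and Cct7, against 41.1% of genes. A facing pair of heat shock element units, GAANNTTC or TTCNNGAA, was in Cct2, Cct5 and Cct6a, against 17% of genes. The ETS core, CCGGAAG or in reverse CTTCCGG, was in Tcp1, Cct2 and Cct8, against 9.93% of genes. Cct2 and Cct5 had 2 windows each, and a match is a run of letters, not a bound site. The 9 windows held 47.3% to 67.7% G and C, against a median of 52.7% over all windows, and the part of this in the GC box count was not tested. The window of Cct2, the subunit that rose most, is shown with its 5 GC boxes in capitals, those of Cct5 and Cct6a with their heat shock pair in capitals, since one rose and the other was not called, and that of Cct7 with its 3 CCAAT boxes, here as ATTGG, in capitals. They span chr10:117063803-117064102 (Cct2, minus strand), chr15:31601797-31602096 (Cct5, minus strand), chr5:129787106-129787405 (Cct6a, plus strand) and chr6:85451255-85451554 (Cct7, plus strand).
Cct2: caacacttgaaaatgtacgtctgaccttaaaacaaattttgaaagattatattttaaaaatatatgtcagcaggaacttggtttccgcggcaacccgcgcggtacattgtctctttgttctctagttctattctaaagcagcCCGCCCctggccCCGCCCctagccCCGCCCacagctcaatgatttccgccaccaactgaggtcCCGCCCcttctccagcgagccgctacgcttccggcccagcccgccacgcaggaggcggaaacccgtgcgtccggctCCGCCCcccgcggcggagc
Cct5: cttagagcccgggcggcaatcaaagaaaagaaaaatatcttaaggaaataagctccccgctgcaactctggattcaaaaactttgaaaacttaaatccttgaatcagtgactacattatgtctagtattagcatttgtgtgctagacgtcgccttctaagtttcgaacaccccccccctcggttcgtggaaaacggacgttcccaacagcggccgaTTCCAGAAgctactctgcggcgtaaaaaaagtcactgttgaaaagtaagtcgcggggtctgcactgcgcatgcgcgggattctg
Cct6a: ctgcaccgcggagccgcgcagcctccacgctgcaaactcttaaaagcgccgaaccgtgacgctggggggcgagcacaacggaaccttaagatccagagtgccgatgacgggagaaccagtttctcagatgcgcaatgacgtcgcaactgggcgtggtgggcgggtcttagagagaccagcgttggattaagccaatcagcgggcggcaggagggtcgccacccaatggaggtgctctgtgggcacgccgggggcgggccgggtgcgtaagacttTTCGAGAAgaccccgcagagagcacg
Cct7: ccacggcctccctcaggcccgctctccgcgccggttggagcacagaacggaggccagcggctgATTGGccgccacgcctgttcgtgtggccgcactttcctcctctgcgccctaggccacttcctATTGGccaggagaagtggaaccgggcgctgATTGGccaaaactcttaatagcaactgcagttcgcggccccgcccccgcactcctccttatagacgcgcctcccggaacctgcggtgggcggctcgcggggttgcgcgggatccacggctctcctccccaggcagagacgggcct

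The heat shock pair of Cct5 begins at position -34 from its start and that of Cct6a at position 24. The pair of Cct2 lies in its other window. The 3 genes with a pair had log2 fold changes of 0.51 (Cct2), 0.35 (Cct5) and 0.08 (Cct6a). Those of the 4 matched genes without one were 0.30 (Tcp1), 0.37 (Cct3), 0.34 (Cct7) and 0.20 (Cct8). The part of the pair, and of heat shock factor activity, in these values was not tested. Hsf1, the main transcription factor of the heat shock response, was at 3.89 ± 0.102 FPKM in IRI libraries and 4.37 ± 0.514 FPKM in sham libraries and fell (log2 fold change -0.42, adjusted p = 0.00257 by edgeR); with library totals it was not called (-0.17, adjusted p = 0.128). Hsf2 was at 2.83 ± 0.394 FPKM in IRI libraries and 2.26 ± 0.037 FPKM in sham libraries and was not called (0.08, adjusted p = 0.545), but rose with library totals (0.33, adjusted p = 0.0145).

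Several subunit genes share a start region with a gene on the opposite strand. Genes whose start lay within 1000 bases of a subunit's start were looked up after other values had been seen, and 6 were found, of which 5 could be tested. Fam173b, which encodes a mitochondrial lysine methyltransferase, starts 48 bases from Cct5. It was at 1.87 ± 0.398 FPKM in IRI libraries and 4.41 ± 0.468 FPKM in sham libraries and fell (log2 fold change -1.49 ± 0.14, adjusted p = 3.23e-06 by edgeR), while Cct5 rose. Mrpl18, a protein of the large mitochondrial ribosomal subunit, starts 644 bases from Tcp1. It was at 40.9 ± 7.09 FPKM in IRI libraries and 52.7 ± 5.41 FPKM in sham libraries and fell (log2 fold change -0.62 ± 0.12, adjusted p = 0.000678). Both were also lower with library totals (-1.23 for Fam173b and -0.37 for Mrpl18, each called). Tsacc, next to Cct3, and Pradc1, next to Cct7, fell as well (-0.75 and -0.59), but with library totals they were not called (adjusted p = 0.0598 for Tsacc and 0.0831 for Pradc1). Psph, a serine synthesis enzyme that starts 451 bases from Cct6a, was not called (-0.11, adjusted p = 0.422), as Cct6a was not. Mrpl18, Pradc1 and Psph overlap the subunit gene, and where the counting did not use strand, reads in the overlap cannot be assigned to one or the other. No source used here states the strand setting. Tcp1 also overlaps Acat3 and Snora20, and Cct8 overlaps Usp16.

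**Figure D4:**
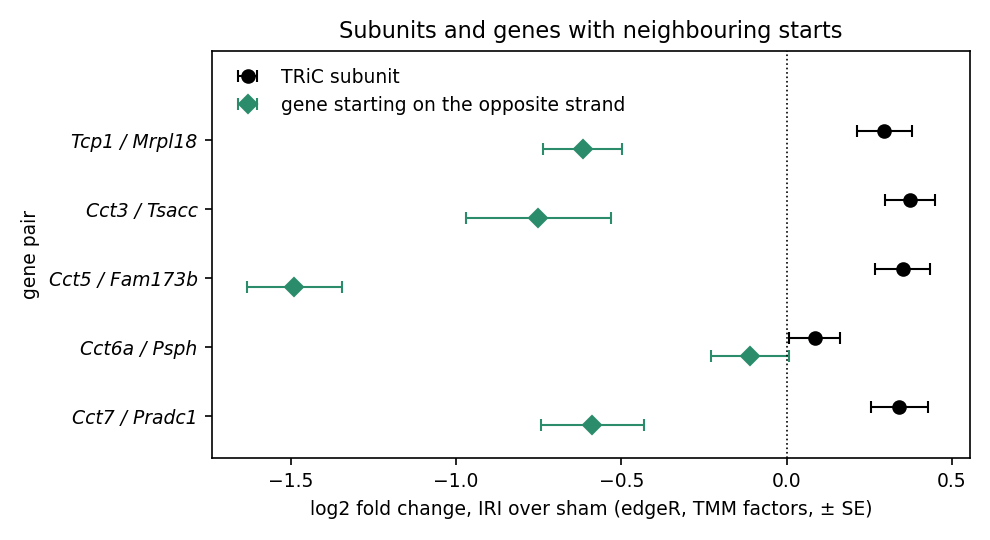
Log2 fold change, IRI over sham (edgeR, TMM factors, bars are 1 SE), of 5 TRiC subunits (black circles) and of the gene that starts nearby on the opposite strand (green diamonds). In 4 of the 5 pairs the subunit was called higher and its neighbour called lower (32.4% of all genes were called lower), and in the pair of Cct6a and Psph neither was called; with library totals the subunits Tcp1, Cct3, Cct5 and Cct7 kept their calls and Cct6a was called higher, and of the 4 neighbours Mrpl18 and Fam173b kept theirs.

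The genes that fold, feed or use TRiC were then followed, each on the TMM scale first and then relative to the mean of the 8 subunits, where a fall means that the transcript changed by less than the 8 together or went down. Prefoldin is the hexamer that hands unfolded actin and tubulin to TRiC. Of its 6 subunits, 2 rose and 3 fell (median log2 fold change -0.20), beside 34.5% and 32.4% of all genes, and with library totals 2 rose and 1 fell (median 0.05), beside 47.4% and 23.6%. Vbp1 rose (log2 fold change 0.41 ± 0.08, adjusted p = 0.000576 by edgeR) and so did Pfdn4 (0.52 ± 0.15, adjusted p = 0.00756). Pfdn5 fell (-0.59 ± 0.12, adjusted p = 0.000668), as did Pfdn2 (-0.31 ± 0.09, adjusted p = 0.00843) and Pfdn1 (-0.30 ± 0.09, adjusted p = 0.0147), and only Pfdn5 was called with library totals. The call of Pfdn1 was lost without sham replicate 5 (-0.22, adjusted p = 0.051). Pfdn6 was not called (-0.11, adjusted p = 0.421). Relative to the TRiC subunits none of the 6 rose and 4 fell, namely Pfdn1, Pfdn2, Pfdn5 and Pfdn6, beside 20.7% and 43.9% of all genes. The summed FPKM of prefoldin was 0.506 to 0.590 times that of TRiC in IRI libraries, against 0.739 to 0.960 times in sham libraries. These ratios did not overlap, but the prefoldin sum itself did (220 to 277 FPKM in IRI libraries, 239 to 312 FPKM in sham libraries). The TRiC sum, which divides it, did not overlap. How many of all genes have a ratio to TRiC that separates the groups was not counted. The ratios also rest on the deposited exonic lengths.

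Phosducin-like proteins bind TRiC and assist or inhibit the folding of its substrates. The 3 of 4 that passed the filter all rose, where 34.5% of all genes rose, with log2 fold changes of 0.39 for Pdcl, 0.37 for Pdcl3 and 0.24 for Txndc9, and none was called relative to the TRiC subunits. Pdcl2 was listed at 0 in all 10 libraries. Pdcl3 was at 17.4 ± 1.86 FPKM in IRI libraries and 11.2 ± 1.07 FPKM in sham libraries (SD, n = 5 each). The tubulin folding cofactors take tubulin on from TRiC and join alpha to beta chains. Of 7 genes 3 rose (34.5% of all genes did), namely Tbce (0.46 ± 0.09, adjusted p = 0.000983 by edgeR), Tbcb (0.45 ± 0.13, adjusted p = 0.00687) and Tbcd (0.33 ± 0.11, adjusted p = 0.0159). Tbcel, which acts on tubulin in the opposite sense by promoting its breakdown, fell (-0.64 ± 0.09, adjusted p = 5.01e-05). Tbca and Tbcc were not called (0.07 and -0.06), although Tbca was with library totals (0.33, with 0.19 for Tbcc). Relative to the TRiC subunits 3 of the 7 fell, Tbcel, Tbcc and Arl2, which is near the 43.9% of all genes that fell on that scale, and none rose.

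The R2TP complex, built on the ATPases Ruvbl1 and Ruvbl2, and the prefoldin-like proteins bound to it assemble RNA polymerases and other complexes. In a comparison where 34.5% of all genes rose and 32.4% fell, of 9 genes tested Uri1 (0.26, adjusted p = 0.0259 by edgeR) and Ruvbl2 (0.22, adjusted p = 0.0464) rose and Pih1d1 fell (-0.36, adjusted p = 0.00495). Both calls upward lay near the threshold. That of Ruvbl2 was lost with DESeq2 (0.19, adjusted p = 0.0716), with RLE factors (0.19, adjusted p = 0.0657), with no filter (0.24, adjusted p = 0.0932) and without IRI replicate 2, 3, 4 or 5 or sham replicate 1, 3 or 4 (log2 fold changes of 0.17 to 0.24, adjusted p 0.0531 to 0.105). That of Uri1 was lost without IRI replicate 4 or 5 or sham replicate 1 or 4 (0.23 to 0.25, adjusted p 0.0523 to 0.065). With library totals 5 of the 9 rose, beside 47.4% of all genes, and none fell. Relative to the TRiC subunits none rose and 3 fell, namely Pih1d1, Pdrg1 and Wdr92, beside 43.9% of all genes. Polr2e and Pdrg1 were not called on the TMM scale (0.02 and -0.07, and 0.28 and 0.18 with library totals).

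Actins and tubulins are the most abundant clients of TRiC. Actb, the cytoplasmic beta actin, was at 568 ± 102 FPKM in IRI libraries and 203 ± 15.0 FPKM in sham libraries (SD, n = 5 each). Of the 6 actin genes, 3 passed the filter and all 3 rose (34.5% of all genes did), with log2 fold changes of 1.22 ± 0.12 for Actb (adjusted p = 4.48e-06 by edgeR), 1.15 ± 0.13 for Actg1 and 1.96 ± 0.22 for Acta2, the actin of smooth muscle. All 3 also rose relative to the TRiC subunits, Actb by 0.95 (adjusted p = 2.42e-05). The summed FPKM of the actins was 1.57 to 2.47 times that of TRiC in IRI libraries, against 1.05 to 1.22 times in sham libraries. Of the 15 tubulin genes, 10 passed the filter and 9 rose, beside 34.5% of all genes, with a median log2 fold change of 2.16, against 0.05 for all genes tested. Tubb2b rose most (3.24 ± 0.18, adjusted p = 9e-08), at 51.6 ± 11.6 FPKM in IRI libraries and 4.56 ± 1.27 FPKM in sham libraries, followed by Tuba1a (2.86 ± 0.15, adjusted p = 4.76e-08). Tubg1, the gamma tubulin of microtubule organising centres, was not called (0.09, adjusted p = 0.529), although with library totals all 10 rose. Relative to the TRiC subunits 8 tubulins rose and none fell, beside 20.7% and 43.9% of all genes. The summed FPKM of the tubulins was 1.75 to 2.30 times that of TRiC in IRI libraries, against 0.815 to 0.968 times in sham libraries. Markers of cycling cells, which use tubulin in the spindle, summed to 2.78 FPKM in IRI replicate 1. In the other IRI libraries they summed to 5.75 to 9.24 FPKM, against 2.17 to 3.89 FPKM in sham libraries. The 1 of 6 that passed the filter was not called, and the others were too low to test. The part of cycling cells in the tubulin values was not tested.

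WD-repeat proteins and some other proteins have been reported as TRiC clients. Of 15 such genes 13 were tested, 10 rose and 1 fell, beside 34.5% and 32.4% of all genes. Of those that rose, Cdc20 and Plk1 reached 1 FPKM in all 5 IRI libraries and in only 2 and 1 of the sham libraries, so they entered the test through the IRI group. Stat3, the transcription factor downstream of interleukin 6, rose most (2.24 ± 0.14, adjusted p = 1.78e-07 by edgeR), at 36.5 ± 5.98 FPKM in IRI libraries and 6.51 ± 0.762 FPKM in sham libraries. Cdc20, an activator of the anaphase-promoting complex, was next (1.19 ± 0.27, adjusted p = 0.00186), at 2.68 ± 0.98 FPKM in IRI libraries and 0.974 ± 0.269 FPKM in sham libraries. Wrap53, which brings telomerase to Cajal bodies, fell (-0.36 ± 0.14, adjusted p = 0.0367), and this call was lost with library totals (-0.11, adjusted p = 0.498) and without IRI replicate 1, 4 or 5 or sham replicate 1, 4 or 5 (adjusted p 0.0526 to 0.112). Hdac3 and Gnb5 were not called (0.02 and 0.40), but both were with library totals, and Gnb5 was without IRI replicate 1 (0.50, adjusted p = 0.0463). Relative to the TRiC subunits 6 of the 13 rose and 2, Wrap53 and Hdac3, fell, beside 20.7% and 43.9% of all genes.

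**Figure D5:**
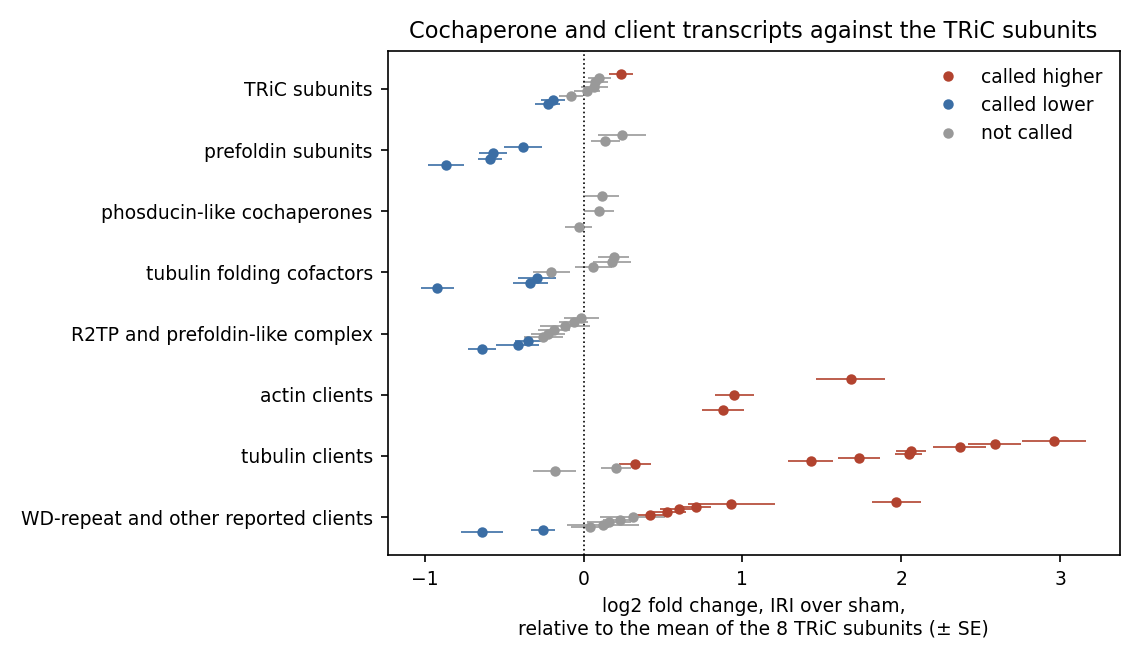
Log2 fold change, IRI over sham, of each tested gene relative to the mean of the 8 TRiC subunits (edgeR, bars are 1 SE), by list of cochaperones and clients; red points were called higher, blue points lower and grey points were not called. All 3 actins and 8 of 10 tubulins were called higher, beside 20.7% of all genes tested. Of the 6 prefoldin subunits 4 were called lower, beside 43.9% of all genes tested.

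Of 5 genes with a chaperonin fold outside TRiC, 4 passed the filter, but Cct6b and Bbs10 reached 1 FPKM in all 5 sham libraries and in only 0 and 2 of the IRI libraries, so they entered the test through the sham group. Cct6b, the paralogue of Cct6a that is known from testis, was at 0.252 ± 0.0432 FPKM in IRI libraries and 1.52 ± 0.356 FPKM in sham libraries and fell (log2 fold change -2.82 ± 0.25, adjusted p = 1.91e-06 by edgeR). Mkks and Bbs10, which with Bbs12 help to build the BBSome of the cilium, fell too (-1.66 and -1.15), in a comparison where 32.4% of all genes fell. Mkks reached 1 FPKM in every library. Bbs12 was not called (-0.03, adjusted p = 0.915), and Cct8l1 did not pass the filter. The mitochondrial chaperonin Hspd1 and its lid Hspe1 were not called (-0.44, adjusted p = 0.179, and -0.25, adjusted p = 0.531), but without IRI replicate 1 both fell (-0.82, adjusted p = 0.000945, and -0.67, adjusted p = 0.0364). In the subunits themselves, leaving out that library gave log2 fold changes of 0.50 for Cct2, 0.39 for Cct7, 0.38 for Cct5, 0.37 for Cct3, 0.25 for Tcp1, 0.19 for Cct8, 0.09 for Cct6a and 0.03 for Cct4.

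HSP70 and HSP90 deliver or receive many of the same substrates. Of the 10 genes of this list, 3 rose and 3 fell, near the shares of all genes (34.5% and 32.4%). With library totals 5 rose and 2 fell, beside 47.4% and 23.6% of all genes, and leaving out single libraries left between 1 and 4 that fell. Dnajb1 and Bag3, both targets of the heat shock factor, rose (adjusted p = 0.00855 and 0.000199 by edgeR). Dnajb1 was at 43.5 ± 46.1 FPKM in IRI libraries and 10.2 ± 1.74 FPKM in sham libraries, with a log2 fold change of 1.9, which without IRI replicate 1 was 0.89 (adjusted p = 0.00299). Hsp90aa1, the inducible HSP90, rose as well (1.00 ± 0.38, adjusted p = 0.0327), but not without IRI replicate 1 (0.41, adjusted p = 0.0611). Bag3 had a log2 fold change of 1.54 ± 0.25, and of 1.22 without that library. Dnaja1, a cochaperone of HSP70, fell (-0.84 ± 0.29, adjusted p = 0.0233), and without IRI replicate 1 its log2 fold change was -1.29. Its call was lost without IRI replicate 2, 3, 4 or 5 (adjusted p 0.0517 to 0.0543). St13, a cochaperone that binds HSP70, fell (-0.54 ± 0.13, adjusted p = 0.00223). Hspa8, the constitutive HSP70, was not called (-0.34, adjusted p = 0.242) but fell without IRI replicate 1 (-0.68, adjusted p = 0.000513), and Hsp90ab1 was not called (0.44, adjusted p = 0.142, and 0.09 without IRI replicate 1). The subunits of TRiC had standard errors of 0.08 to 0.09 on the log2 scale, and the genes of this list ran from 0.09 for Hspa4 to 0.55 for Dnajb1.

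The genes whose profile over the 10 libraries was nearest to the mean profile of the 8 subunits were found by the root mean square difference of their centred log2 TMM-scaled CPM, among 11789 genes other than the subunits and predicted or clone-named genes. Cops3, a subunit of the COP9 signalosome, was the nearest with a difference of 0.033, followed by the proteasome ATPase Psmc1 (0.052), the cap-binding protein Eif4e (0.054), the fucosyltransferase Pofut2 (0.059) and Lamtor3 (0.059), a scaffold on late endosomes. The subunits themselves differed from their own mean by 0.058 for Cct3 to 0.130 for Cct4. The 5 genes were picked as the nearest of 11789 and the subunits were not, so their differences cannot be ranked against those of the subunits. Cops3 was at 22.6 ± 1.27 FPKM in IRI libraries and 15.8 ± 0.669 FPKM in sham libraries, and Psmc1 was at 100.1 ± 6.33 FPKM in IRI libraries and 68.0 ± 2.26 FPKM in sham libraries (SD, n = 5 each). With log2(FPKM + 1) in place of scaled counts, 4 of these 5 genes were again among the nearest 5. The measure describes likeness over these libraries only.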

How the data were processed

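Poly(A) RNA of mouse kidney was sequenced in 10 libraries (5 IRI, 5 sham), and the authors deposited 1 table with raw counts per gene, FPKM and exonic lengths. The submitters' processing notes name cutadapt 1.9.1, HISAT2 2.0.1 and HTSeq 0.6.1 and the build GRCm39, with no settings, and no strand setting is stated. Recomputing FPKM from the deposited counts, lengths and library totals matched 100% of the deposited FPKM values within 0.005 or 0.1%. Levels are the deposited FPKM values.

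The 13324 genes that reached 1 FPKM in no fewer than 5 libraries were fitted with edgeR 4.0.16 (R 4.3.3) on the counts, scaled by TMM, with Benjamini-Hochberg adjustment over all of them. The fit was also run on simulated counts with known fold changes. Few genes were changed there, in equal numbers up and down, so the choice of scaling in these data was not tested by it. DESeq2 1.42.0, limma 3.58.1 on log2(FPKM + 1), other scalings and filters, a replicate block and leaving out each library were tried as alternatives. The labels do not say that the libraries came from separate mice, so p-values measure only the spread between libraries.

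Members and gene lists were chosen with earlier results of these data known. The genes named were all members, all prefoldin subunits and heat shock factors, of each other list up to 2 called genes of largest rise and of largest fall and up to 2 uncalled genes of highest FPKM, and the 5 genes of most similar profile. Actg1, Txndc9, Tbcd, Arl2, Wdr92, Bbs10, Cct8l1, Pdcl2, Plk1, Hspa4, Hsp90aa1, single cell type markers and the neighbouring genes were named after their values were seen. Symbols were found for 52083 of the 55359 identifiers.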

Additional observations from a re-analysis of the deposited data

Results flagged for a closer look

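Of the 108 groups of 5 libraries tested, 11 had a library marked by Dixon's test. Its gap to its nearest neighbour exceeded the 95% critical value, 0.71 of the range. Chance marks about 1 in 20 independent groups in this way. The groups here share the same libraries and are not independent, so no excess over chance can be read from the count. The marks were made on FPKM only. Of the subunits, Cct7 alone was marked, with 21.74 FPKM in IRI replicate 1 and 27.44 FPKM in the next lowest IRI library. After TMM scaling Cct7 was at 149 CPM in IRI replicate 1 and at 165 to 185 CPM in the other IRI libraries. IRI replicate 1 was marked for 6 other genes. It was lowest for Actb, at 388.31 FPKM with the next IRI library at 594.03 FPKM, and for Psmc1, at 89.23 FPKM with the next at 101.66 FPKM. It was highest for Dnajb1 at 124.95 FPKM, Dnaja1 at 51.05 FPKM, Hspa8 at 436.39 FPKM and Hsp90ab1 at 1239.34 FPKM, with the next IRI library at 31.67, 24.19, 234.49 and 696.74 FPKM. Mitochondrial ribosomal RNA took 2.31% of the counts of that library, and the part of RNA quality in these values was not tested. Cdc20 was high in IRI replicate 4 (4.37 FPKM, next 2.54 FPKM) and Tbcc in IRI replicate 2 (12.48 FPKM, next 11.37 FPKM). Among sham libraries, replicate 5 was lowest for Hsp90ab1 (412.56 FPKM, next 457.56 FPKM) and highest for Pfdn6 (34.86 FPKM, next 26.16 FPKM).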

How the results depend on the processing

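The log2 fold change of each subunit, IRI over sham, kept its sign under every alternative run, and relative to the mean of the 8 that of Tcp1, which was not called, ran from -0.03 to 0.04 when single libraries were left out. Cct4 was called higher with library totals (0.30), limma on log2(FPKM + 1) (0.29) and on log2(FPKM + 0.1) (0.30), and Cct6a likewise (0.34, 0.33 and 0.33). Cct8 lost its call with RLE factors (0.18), without a filter (0.22) and at an adjusted p under 0.01 (0.20). Replicate numbers did not pair the libraries (correlations of same-numbered deviations of -0.25 to 0.06, and no library closest to its own number), and with the number as a replicate block Cct8 was at 0.20 (adjusted p = 0.109) and no other subunit call changed. Leaving out each library gave log2 fold changes of 0.18 to 0.24 for Cct8, and relative to the mean of the 8 subunits -0.25 to -0.20 for Cct4 and -0.21 to -0.17 for Cct6a. The median over the subunits was 0.57 with library totals and 0.55 and 0.57 with limma at the pseudocounts 1 and 0.1. The lists had 13 genes called lower, against 7 with library totals and with either limma fit. Of all genes tested, 32.4% were called lower with TMM factors and 23.6% with library totals. The highest subunit level was 1.86 (IRI) and 1.65 (sham) times the lowest with reference transcript lengths, an alternative chosen after seeing the data. The number of subunits called higher was 5 to 8 over all alternatives, and none was called lower. Among all genes, 34.5% were called higher with TMM factors and 47.4% with library totals. The cause of the changes was not tested.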
